A study of Mus musculus with 42 samples.

Results

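The RNA content of mouse embryonic stem cells labelled Trim71KO and of cells without that label was compared in the input libraries of the second of 2 experiments. The members are 6 of the 42 libraries of the series, chosen by their labels, namely 3 of cells labelled Trim71KO and 3 of tagged cells without that knockout. Both groups carry an HA-AVI tag on Tnrc6a. The cells labelled Trim71KO are in addition Trim71-/- by their labels. All are mES cells of the 129S6/SvEvTac background that hold the yGlob reporter GFP_5xT71BS and a stably integrated FLAG-Cas9::T2A::Blasticidin construct. They were kept on gelatin in medium with serum and LIF and grown to confluency in triplicate dishes. The series as a whole asks which RNAs associate with Tnrc6a, and sequenced RNA bound to anti-HA beads next to the RNA of the same lysates. Only the lysate RNA is described here. It was prepared with a stranded total RNA kit. Experiment 2 also has untagged cells, which lack the HA-AVI tag, and tagged cells labelled Ago2KO, with 3 input libraries each, and their levels are given where they help to read a gene. The labels do not say whether the knockout cells were 1 clone. Replicates are dishes, so p-values measure the spread between dishes, which may be technical.

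TRIM71 (LIN-41) is a cytoplasmic protein of the TRIM-NHL family that binds RNA hairpins through its NHL domain and represses the mRNAs that carry them. It is present in pluripotent cells and the early embryo, and its own mRNA is a textbook target of the microRNA let-7. TNRC6 proteins are the partners through which Argonaute proteins silence mRNAs. Mouse embryonic stem cells in serum and LIF form a mixed population that self-renews under LIF and BMP signals, while FGF signals through ERK favour exit from this state, and some of its cells switch on genes of later lineages.

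Values are in CPM, which are counts scaled to a common library total with TMM factors. Changes are log2 ratios of the libraries labelled Trim71KO over the tagged libraries with their standard error (SE), each from 3 against 3 libraries. Calls rest on edgeR's quasi-likelihood test with a threshold of 0.05 on the p-value, adjusted by Benjamini and Hochberg's method across the 19778 genes tested. The 6 libraries held 17083684 to 19266517 counts. Trim71 RNA was 309, 265 and 273 CPM in the tagged libraries and 368, 387 and 376 CPM in those labelled Trim71KO (log2 change 0.42, SE 0.083, adjusted p 0.000411), so the RNA level gives no check of the label, and the libraries are called by their label throughout. Tnrc6a RNA was 93.8, 83.1 and 86.7 against 110.3, 114 and 117 CPM (log2 change 0.37, SE 0.20, adjusted p 0.177). It passed the test when the replicate number was a block (adjusted p 0.00469), when only the compared groups were fitted, and when only input libraries were fitted. Ago2 RNA was 390.2, 321 and 347 against 297, 299.9 and 377 CPM (log2 change -0.12, SE 0.10, adjusted p 0.39). All 8 embryonic stem cell markers examined were measured, and their summed level was 5303 to 5628 CPM in the tagged libraries and 6028 to 6571 CPM in those labelled Trim71KO. Of 11 fibroblast markers, 8 were too low to be tested, among them Col1a2, Col3a1 and Dcn, and the summed level of the other 3 was 54.3 to 57.1 against 58.5 to 62.1 CPM. Of 4 trophoblast markers 1 was tested, and of 6 blood markers 3.

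In all, 5383 genes (27.2%) were called, 2671 higher (13.5%) and 2712 lower (13.7%) in the libraries labelled Trim71KO. Changes of at least 2-fold were called for 1053 genes (5.32%), 330 of them higher and 723 lower. The median change over all genes was -0.011. With library size alone in place of TMM, 34.6% of the calls were higher, against 49.6% with TMM, and the median was -0.077. The direction of change varied with level. Among the 5127 genes whose mean over the 12 input libraries was at most 2 CPM, 4.10% were called higher and 10.9% lower. Their summed level was 4711 to 4802 CPM in the tagged libraries and 4300 to 4365 CPM in those labelled Trim71KO. Above 64 CPM, 22.1% of 3531 genes were called higher and 10.1% lower. Many genes of later lineages sit in this low range, and their counts stand against that background. Its part in the results was not tested.

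**Figure D1:**
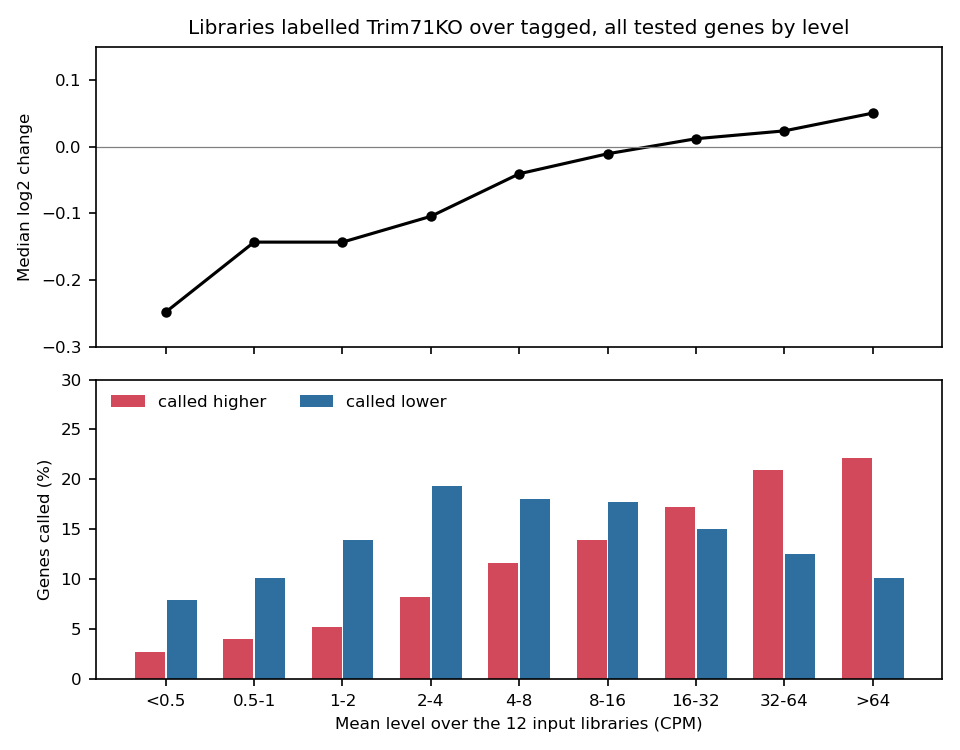
Median log2 change of all tested genes (upper panel, points) and the percent of them called higher and lower (lower panel, bars), by mean level over the 12 input libraries in CPM. The median runs from -0.25 below 0.5 CPM to 0.051 above 64 CPM.

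Among called genes of at least moderate level whose groups did not overlap, the 15 largest falls and the 15 largest rises were examined by name. Nkx6-3, a homeobox transcription factor gene, had the largest rise, with 2.22, 2.08 and 2.03 CPM in the tagged libraries and 15.5, 17.4 and 17.1 CPM in those labelled Trim71KO (log2 change 2.98, SE 0.17, adjusted p 1.16e-12). It was followed by genes of the Nodal antagonists Lefty1 and Lefty2, described below, and by Tm9sf5 (2.41), the phospholipase gene Pla2g4e (2.22) and Cpe (2.22), which encodes the prohormone-processing enzyme carboxypeptidase E. Cpe stood at 12.1, 11.6 and 13.2 against 54.5, 56.9 and 60.5 CPM. The cation channel gene Trpm1 rose by 2.03, the interleukin 6 receptor gene Il6ra by 1.91 and Tmem132d by 1.88. Ago2KO-labelled cells held intermediate levels of some of these, such as 10.3 ± 1.22 CPM of Il6ra, 8.39 ± 1.03 CPM of Pla2g4e and 6.39 ± 0.0376 CPM of Tmem132d, against 4.58 ± 0.75, 2.81 ± 0.816 and 2.76 ± 0.353 CPM in tagged cells. Cpe, at 12.6 ± 0.744 CPM there, was near its tagged level of 12.3 ± 0.833 CPM.

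The largest fall was that of the meiotic gene Stra8, described below. Coro2a, which encodes an actin-binding coronin, fell by 3.73-fold (8.54, 9.13 and 9.14 against 2.31, 2.69 and 2.19 CPM, log2 change -1.90, SE 0.15, adjusted p 2.5e-10). Genes of antigen presentation were in the same group. H2-Ab1 stood at 6.02, 8.81 and 9.77 against 2.02, 1.95 and 2.29 CPM (log2 change -1.97, SE 0.20, adjusted p 2.42e-08), and H2-Q7 at 16.8, 21.8 and 22.4 against 4.52, 4.85 and 4.93 CPM (log2 change -2.09, SE 0.16, adjusted p 2.23e-10). H2-Q7 has near-identical neighbours, so its value is uncertain. Other genes of this group were Aurkc, a kinase gene of the germline (-1.87 (SE 0.19)), Car12, a carbonic anhydrase gene (-1.66 (SE 0.18)), Cpn1 (-1.65 (SE 0.15)), Ankrd44 (-1.65 (SE 0.14)), Col26a1 (-1.58 (SE 0.22)) and the homeobox gene Rhox10 (-1.58 (SE 0.14)). Genes were taken into this group only if the 3 libraries labelled Trim71KO lay wholly above or wholly below the 3 tagged ones. Their separation is thus a condition of the choice and not a result. It was met upward in 20.4% and downward in 21.2% of all tested genes.

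**Figure D2:**
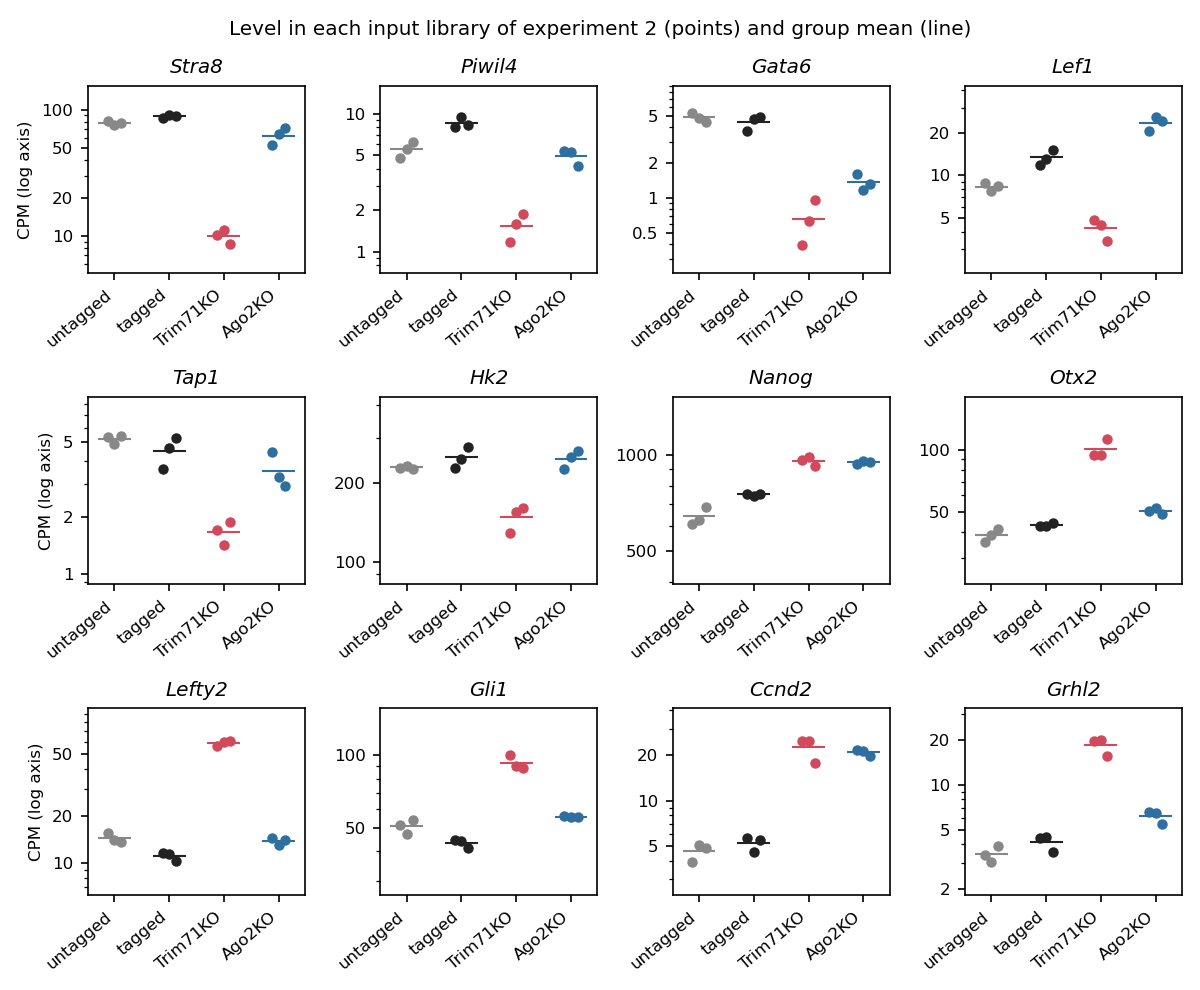
Level in CPM (log axis) of 12 genes in each input library of experiment 2, with 3 points per group for untagged cells, tagged cells, tagged cells labelled Trim71KO and tagged cells labelled Ago2KO. Lines mark group means. Stra8 falls from a mean of 88.6 to 9.93 CPM, while Ccnd2 is high both in the libraries labelled Trim71KO (22.6 CPM) and in those labelled Ago2KO (21.0 CPM).

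Genes of naive pluripotency leaned higher. Of the 18 genes of naive pluripotency, 12 were called higher and 3 lower, with a median of 0.36. Nanog, a core factor of self-renewal, was 755, 745 and 755 CPM in the tagged libraries and 965, 984 and 924 CPM in those labelled Trim71KO (log2 change 0.35, SE 0.061, adjusted p 8.52e-05). Klf4 (0.25 (SE 0.065)), Klf5 (0.57 (SE 0.064)), Zfp42 (0.33 (SE 0.057)), the orphan receptor gene Nr0b1 (0.70 (SE 0.063)) and Tdh, the threonine dehydrogenase gene of this cell type (0.61 (SE 0.06)), also rose. Esrrb, a naive factor, was 813, 809 and 816 against 781, 798 and 811 CPM (log2 change -0.028, SE 0.049, adjusted p 0.718), and the 3 members that fell were Dppa3 (0.74, 1.17 and 0.968 against 0.442, 0.369 and 0.203 CPM, -1.48 (SE 0.40)), Jam2 (-0.32 (SE 0.072)) and Fbxo15 (-0.18 (SE 0.067)). Dppa3, a gene of naive cells and germ cells, had the largest change of the list, at a low level. The call of Fbxo15 was lost with RLE size factors, with DESeq2 and without tagged replicate 1, tagged replicate 2, Trim71KO replicate 1 or Trim71KO replicate 2, with adjusted p of 0.0585 to 0.157. Among the 12 core pluripotency genes 5 rose and 0 fell. Sox2 stood at 660.4, 661 and 654 against 827, 849 and 844 CPM (log2 change 0.35, SE 0.061, adjusted p 8.72e-05). Pou5f1, which encodes Oct4, was 1445, 1519 and 1341 against 1696, 1754 and 1551 CPM (log2 change 0.22, SE 0.061, adjusted p 0.00951), and its call was lost with library size alone (adjusted p 0.159), without tagged replicate 3 (0.075) and without Trim71KO replicate 2 (0.0598).

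Genes of the formative and primed state, through which cells leave naive pluripotency, did not move one way. Of 16 measured, 6 rose and 4 fell. Otx2, a transcription factor gene of this transition, was 42.8, 42.6 and 43.9 CPM in the tagged libraries and 94.6, 93.9 and 113 CPM in those labelled Trim71KO (log2 change 1.22, SE 0.072, adjusted p 2.23e-12). Foxd3 was 29.0, 27.9 and 26.5 against 75.5, 77.2 and 62.9 CPM (log2 change 1.37, SE 0.10, adjusted p 1.39e-10). The groups were far apart for both genes, and in Ago2KO-labelled cells they stood at 50.7 ± 1.70 and 37.8 ± 6.05 CPM. The factors Lef1 and Pou3f1 went the other way, with -0.80 (SE 0.17) for Pou3f1.

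Germline and meiosis genes leaned lower. Of 32 measured of 34 listed, 19 were called lower and 2 higher, and the median change was -0.56 against -0.011 over all genes. In mouse embryonic stem cells some of these genes are held in check by DNA methylation and by the PRC1.6 complex, which reaches CACGTG-containing E-box and E2F sites in their promoters. Stra8, which initiates meiosis under retinoic acid, was 85.6, 91.2 and 89.1 CPM in the tagged libraries and 10.1, 11.1 and 8.64 CPM in those labelled Trim71KO. The fall was 8.92-fold (log2 change -3.16, SE 0.14, adjusted p 2.37e-14). Untagged cells held 78.1 ± 2.83 CPM and Ago2KO-labelled cells 62.4 ± 9.57 CPM.

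Several genes of the piRNA pathway, which silences transposons in germ cells, fell with it. Piwil4, a PIWI protein gene, was 8.04, 9.55 and 8.37 CPM in the tagged libraries and 1.18, 1.58 and 1.88 CPM in those labelled Trim71KO (log2 change -2.48, SE 0.17, adjusted p 2.07e-11). Untagged cells held 5.55 ± 0.711 CPM, below the tagged cells by 0.64 (SE 0.14, adjusted p 0.0132). Tdrkh, a piRNA biogenesis factor gene, was 19.4, 17.98 and 18.1 against 7.91, 7.81 and 8.18 CPM (log2 change -1.22, SE 0.10, adjusted p 1.6e-09), and the helicase gene Mov10l1 was 18.5, 18.3 and 19.2 against 9.83, 11.5 and 11.9 CPM (log2 change -0.75, SE 0.13, adjusted p 5.35e-05). For all of these genes the groups did not overlap, a condition of the choice for genes chosen by size of change. It was met downward in 21.2% of all tested genes. Ddx4, the Vasa helicase gene and a general marker of germ cells, fell less (20.8, 21.2 and 23.9 against 15.6, 15.3 and 17.4 CPM, log2 change -0.45, SE 0.10, adjusted p 0.00127).

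Among meiotic and spermatogenic members, some fell and others did not pass the test. Brdt, a testis bromodomain gene, was 5.87, 5.18 and 5.95 against 2.16, 1.95 and 1.88 CPM (log2 change -1.50, SE 0.14, adjusted p 1.37e-08). Sycp3, a component of the synaptonemal complex that pairs chromosomes, was 14.1, 12.8 and 15.4 against 7.08, 5.96 and 6.71 CPM (log2 change -1.10, SE 0.13, adjusted p 4.8e-07), and Ddx25 was 12.4, 14.4 and 12.1 against 5.75, 6.70 and 5.18 CPM (log2 change -1.14, SE 0.12, adjusted p 1.02e-07). Another component of that complex, Sycp2 (5.43, 5.07 and 5.52 against 5.997, 6.44 and 6.56 CPM, log2 change 0.24, SE 0.15, adjusted p 0.241), and the meiotic recombinase gene Dmc1 (8.29, 8.43 and 8.71 against 9.49, 8.28 and 10.1 CPM, log2 change 0.13, SE 0.12, adjusted p 0.469) were not called. Prdm1, which encodes the germ cell specification factor Blimp1, rose from 3.77 ± 1.07 to 8.44 ± 1.14 CPM (log2 change 1.17, SE 0.17, adjusted p 5.76e-06), and Sohlh2, a germ cell transcription factor gene, rose by 0.35 (SE 0.058). Ago2KO-labelled cells were also below tagged cells in several of the fallen genes, with a log2 change of -0.81 (SE 0.14, adjusted p 0.000403) for Piwil4, -0.55 (SE 0.10, adjusted p 0.000588) for Tdrkh and -0.51 (SE 0.12, adjusted p 0.00862) for Stra8.

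The CACGTG motif was searched in the 250 bases before the start of each gene, in RefSeq promoters of GRCm38.p6. It reads the same on both strands. It was present in 6.02% of all 32851 promoters. Among the 19 germline genes called lower, 17 had a promoter in the table and 5 of them held the motif (29.4%). Of the other 13 germline genes measured, 12 had a promoter and 6 held it (50%). The 4 sequences below are stretches around the motif in promoters of fallen genes named here, with the motif in capitals. They are given 5′ to 3′ on the strand of the gene and end at or before its start.
Brdt (chr5:107331086-107331151, + strand): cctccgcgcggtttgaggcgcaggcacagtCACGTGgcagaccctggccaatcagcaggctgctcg
Sycp3 (chr10:88459493-88459558, + strand): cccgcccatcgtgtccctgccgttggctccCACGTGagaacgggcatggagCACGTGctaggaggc
Ddx4 (chr13:112652311-112652369, - strand): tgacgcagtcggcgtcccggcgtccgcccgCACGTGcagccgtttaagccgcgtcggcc
Mov10l1 (chr15:88982744-88982783, + strand): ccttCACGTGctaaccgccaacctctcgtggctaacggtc
The E2F motif, searched as TTCCCGCC or its reverse complement GGCGGGAA, was in 1.86% of all promoters and in 2 of the 17, those of Ddx4 and Tex14. Stra8 and Piwil4, with the largest falls, held neither in this window. These are matches of letters, not measured binding sites.

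In the list of the primitive endoderm, the extraembryonic lineage next to the epiblast, several transcription factor and surface protein genes of low level fell. Of 19 measured, 10 fell and 1 rose, with a median of -0.64. The summed level of the list was 748, 616 and 759 CPM in the tagged libraries and 675, 651 and 708 CPM in those labelled Trim71KO, and the groups overlapped. Gata6, which specifies the lineage, was 3.75, 4.75 and 4.89 CPM in the tagged libraries and 0.393, 0.633 and 0.966 CPM in those labelled Trim71KO (log2 change -2.74, SE 0.25, adjusted p 4.08e-09). Sox17, a factor downstream of it, was 1.13, 1.23 and 1.45 against 0.393, 0.105 and 0.203 CPM (log2 change -2.39, SE 0.51, adjusted p 0.000753), and its levels lie in the range where all genes lean down. The receptor gene Pdgfra was 3.45, 3.20 and 4.11 against 1.03, 1.27 and 1.17 CPM (log2 change -1.63, SE 0.22, adjusted p 3.1e-06) and the adaptor gene Dab2 5.08, 4.48 and 5.76 against 1.47, 1.64 and 1.93 CPM (log2 change -1.60, SE 0.23, adjusted p 5.49e-06). The groups did not overlap for any of these 4, a condition of the choice for genes chosen by size of change. It was met downward in 21.2% of all tested genes. Gata4 fell by 0.66 (SE 0.16) and the basement membrane gene Lamb1 fell by 0.71 (SE 0.15). Lama1, the laminin gene that rose (0.39 (SE 0.14)), lost its call with library size alone and in 4 of the 6 fits that left out a library, namely tagged replicate 2 and each Trim71KO replicate. In Ago2KO-labelled cells Gata6 stood at 1.37 ± 0.224 CPM, Dab2 at 1.42 ± 0.33 CPM and Pdgfra at 1.64 ± 0.188 CPM, against 4.46 ± 0.621, 5.11 ± 0.638 and 3.59 ± 0.47 CPM in tagged cells, with log2 changes of -1.71 (SE 0.22, adjusted p 7.22e-06), -1.86 (SE 0.23, adjusted p 6.39e-06) and -1.12 (SE 0.21, adjusted p 0.000903). In bulk RNA, fewer cells that express a gene and less RNA per cell cannot be told apart.

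Lists of embryonic lineages held calls in both directions, apart from the Hox list. In primitive streak and definitive endoderm 2 of 10 rose and 4 fell, with a median of -0.74. The largest fall there was in Foxa1 (0.839, 1.07 and 0.871 against 0.295, 0.264 and 0.152 CPM, -1.93 (SE 0.45)), an endoderm factor gene of low level. The homeobox gene Cdx1 was 9.13, 9.34 and 8.37 against 3.93, 5.17 and 3.61 CPM (log2 change -1.08, SE 0.14, adjusted p 1.41e-06) and Hhex 6.76, 8.33 and 6.73 against 2.61, 3.27 and 3.86 CPM (log2 change -1.16, SE 0.17, adjusted p 1.28e-05). In neuroectoderm 2 of 15 rose and 4 fell. Sox1, an early neural plate gene, was 14.2, 15.9 and 14.6 against 6.49, 8.86 and 8.34 CPM (log2 change -0.92, SE 0.13, adjusted p 4.15e-06), with 23.7 ± 1.16 CPM in untagged cells. Sox11 rose by 0.74 (SE 0.13), and Neurod1 fell by 1.24 (SE 0.17). For mesoderm and heart, 2 of 15 rose and 3 fell, among them Msx2 (-1.53 (SE 0.26)) and Des (-0.70 (SE 0.092)). That count of 5 was 3 without tagged replicate 1, Trim71KO replicate 1 or Trim71KO replicate 3. For trophoblast 4 of 11 rose, such as Tead4 (0.89 (SE 0.089)) and the keratin gene Krt8 (0.72 (SE 0.15)), and 3 fell, such as Ascl2 (-0.76 (SE 0.14)). Of 12 genes of the Hox clusters 7 fell and 0 rose, with a median of -1.04. Means were under 2 CPM in both groups for 8 of the 12, the range where all genes lean down. Of the 7 that fell, 4 were under 2 CPM in tagged cells. Hoxc13 was 4.34, 4.06 and 4.31 against 1.87, 2.22 and 2.49 CPM (log2 change -0.95, SE 0.17, adjusted p 9.07e-05). Of the 5 genes of the cleavage stage that could be tested, all copies of Zscan4 and thus uncertain, 1 fell, and 2 fell with library size alone and without tagged replicate 2 or Trim71KO replicate 1.

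**Figure D3:**
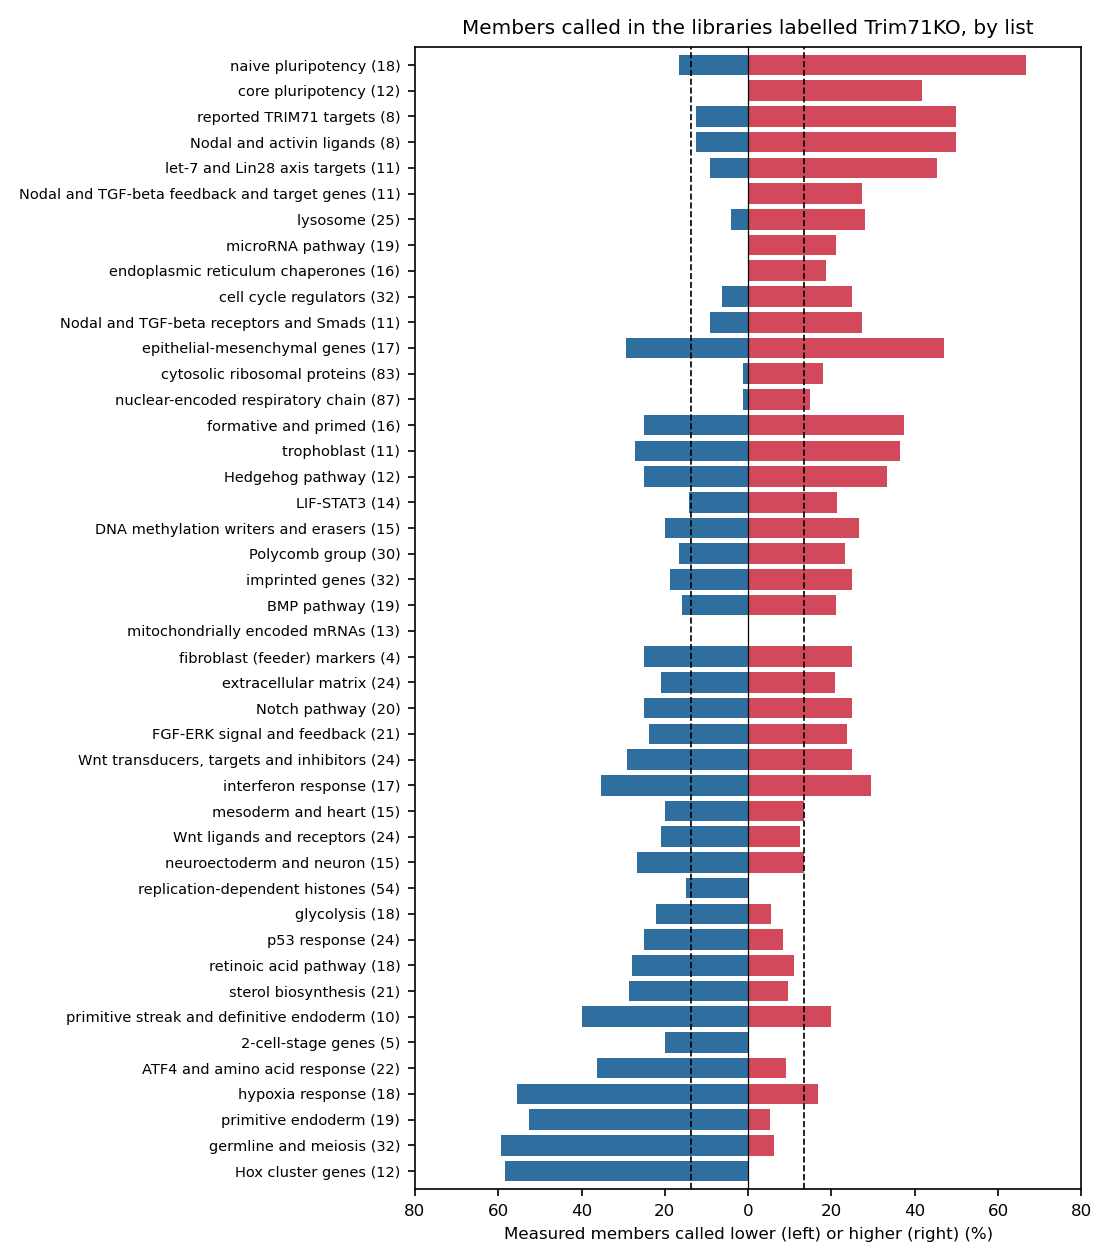
Percent of measured members called higher (right) and lower (left) in the libraries labelled Trim71KO for each gene list, with the number of measured members beside its name. Dashed lines mark the shares over all tested genes, 13.5% higher and 13.7% lower. Germline and primitive endoderm genes lean lower, and naive pluripotency genes higher.

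Genes of signalling pathways were examined next, beginning with Nodal and activin, TGF-beta family ligands that act through Smad2 and Smad3. The feedback inhibitors Lefty1 and Lefty2, which are direct targets of the pathway, rose most. Lefty1 was 2.37, 2.72 and 2.61 CPM in the tagged libraries and 18.5, 18.3 and 13.8 CPM in those labelled Trim71KO (log2 change 2.71, SE 0.19, adjusted p 2.89e-11). Lefty2 was 11.6, 11.5 and 10.3 against 56.2, 59.5 and 60.4 CPM (log2 change 2.40, SE 0.13, adjusted p 2.25e-13). The groups were far apart for both. Ago2KO-labelled cells held 6.90 ± 0.719 CPM of Lefty1 and 13.9 ± 0.816 CPM of Lefty2, and untagged cells 4.65 ± 0.386 and 14.4 ± 1.02 CPM. Among 8 ligand genes 4 rose and 1 fell. The activin subunit gene Inhbb rose by 0.56 (SE 0.15), Tgfb1 by 0.48 (SE 0.10) and Gdf3 by 0.33 (SE 0.091). Nodal itself was 17.2, 17.7 and 15.2 against 20.6, 21.5 and 19.9 CPM (log2 change 0.31, SE 0.088, adjusted p 0.0101), a call that was lost with library size alone (0.0524) and without tagged replicate 3 (0.0742). Foxh1, the DNA-binding partner of the Smads, was 10.5, 13.1 and 9.10 against 19.2, 17.4 and 18.2 CPM (log2 change 0.75, SE 0.10, adjusted p 3.85e-06), and Smad2 fell by 0.26 (SE 0.069). Of 11 receptors and Smads 3 rose and 1 fell, and 2 were called with library size alone, without tagged replicate 2 or without Trim71KO replicate 3. Of 11 feedback and target genes 3 rose and 0 fell, with 5 called with library size alone.

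In the Hedgehog pathway, the genes that the pathway switches on as readout and feedback rose together. Gli1, a transcription factor and target, was 44.5, 44.0 and 41.4 CPM in the tagged libraries and 101, 90.8 and 88.4 CPM in those labelled Trim71KO (log2 change 1.11, SE 0.068, adjusted p 3.96e-12). The receptor gene Ptch1 was 75.2, 73.5 and 72.0 against 165, 158 and 153 CPM (log2 change 1.11, SE 0.068, adjusted p 3.96e-12). Hhip, whose protein captures the ligand, was 0.839, 0.48 and 0.581 against 2.02, 2.16 and 2.90 CPM (log2 change 1.88, SE 0.36, adjusted p 0.000256). In each of these 3 genes all libraries labelled Trim71KO exceeded all tagged ones. That was a condition of the choice for genes chosen by size of change, met upward in 20.4% of all tested genes. Gli3, whose protein mainly represses targets, fell (-0.79 (SE 0.13)), as did the co-receptor gene Cdon (-0.67 (SE 0.13)). Smo, the signal transducer, was 46.5, 44.7 and 41.6 against 38.6, 39.5 and 34.1 CPM (log2 change -0.24, SE 0.074, adjusted p 0.0155) and lost its call without tagged replicate 1 or Trim71KO replicate 3. Ago2KO-labelled cells were above tagged cells by 0.51 (SE 0.068, adjusted p 1.33e-05) for Ptch1 and 0.36 (SE 0.068, adjusted p 0.00113) for Gli1.

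**Figure D4:**
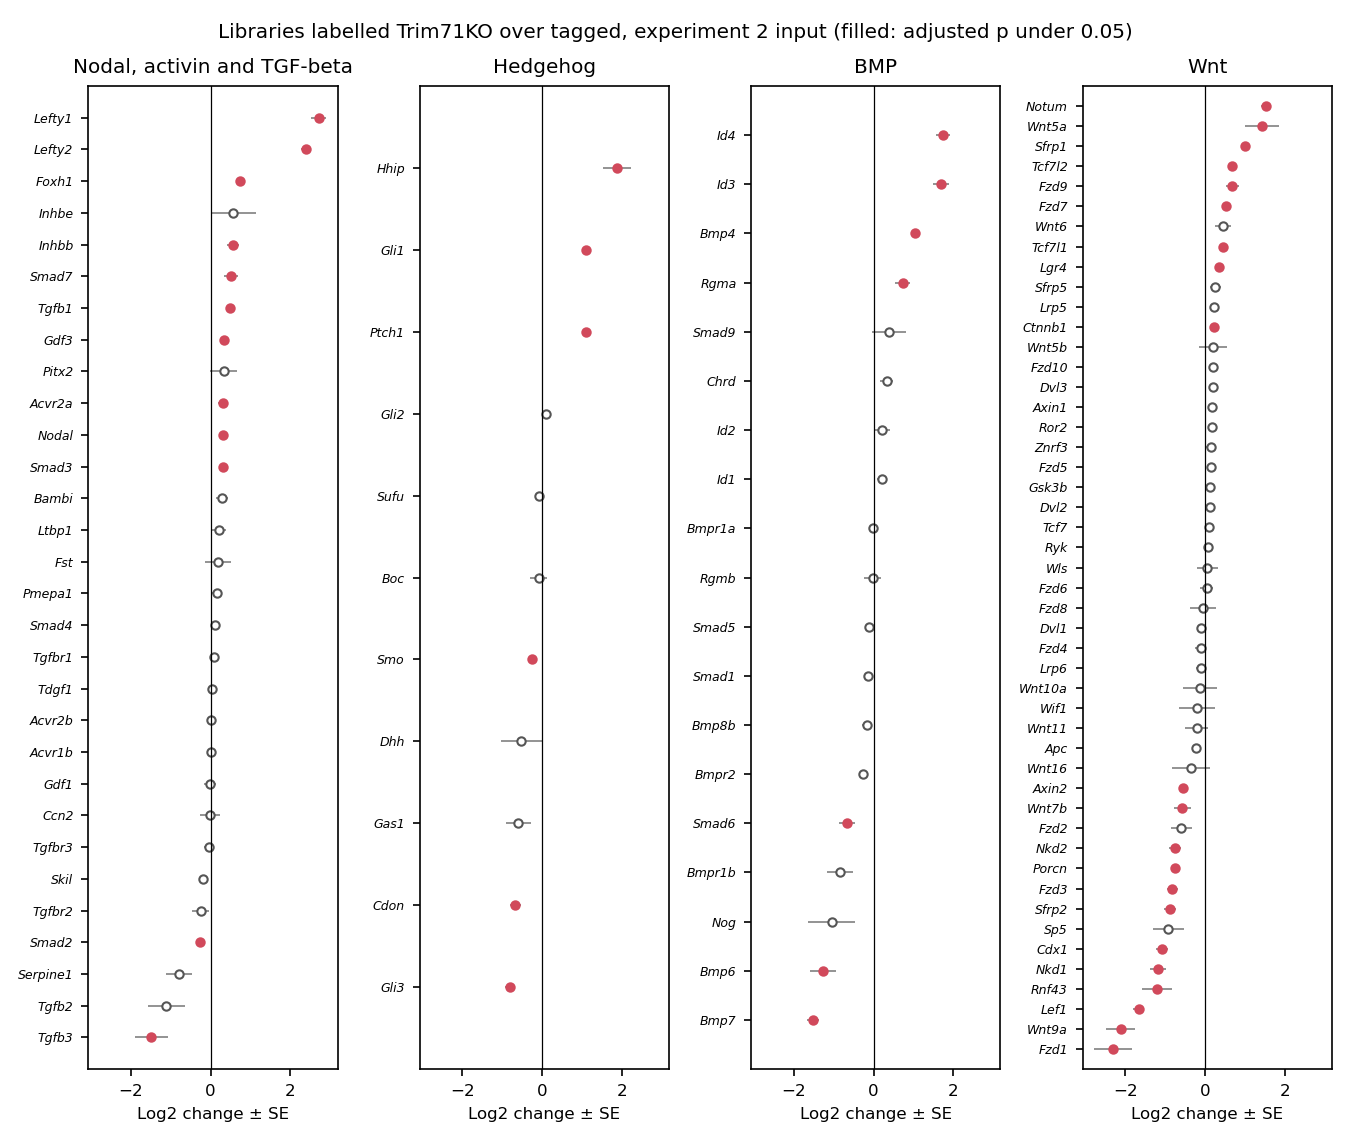
Log2 change of measured members of the Nodal, Hedgehog, BMP and Wnt lists with its SE (1 member is not shown), from 3 against 3 libraries. Filled points passed the test. Lefty1 (2.71), Lefty2 (2.40) and Hhip (1.88) lie toward the upper end and Lef1 (-1.66) and Bmp7 (-1.52) toward the lower.

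Genes of the BMP pathway split. The target genes Id3 and Id4, which encode inhibitors of basic helix-loop-helix factors, rose. Id3 was 12.7, 9.77 and 11.999 CPM in the tagged libraries and 42.7, 35.5 and 34.1 CPM in those labelled Trim71KO (log2 change 1.70, SE 0.20, adjusted p 4.03e-07), and Id4 was 3.11, 3.47 and 1.69 against 9.29, 9.65 and 8.54 CPM (log2 change 1.74, SE 0.18, adjusted p 7.01e-08). Id1, another target, was 28.5, 24.4 and 24.3 against 28.7, 31.6 and 28.4 CPM (log2 change 0.20, SE 0.11, adjusted p 0.203), with groups that overlapped and a call only in the fit of the input libraries alone. The ligand genes went opposite ways, Bmp4 with 28.4, 28.2 and 26.5 against 57.3, 57.8 and 55.2 CPM (log2 change 1.04, SE 0.078, adjusted p 1.71e-10) and Bmp7 with 11.8, 10.9 and 14.0 against 3.83, 4.54 and 4.42 CPM (log2 change -1.52, SE 0.15, adjusted p 2.91e-08). Of 19 members 4 rose and 3 fell. Falls not named above were -1.28 in another ligand gene and -0.67 in a Smad gene. The rise not named above was 0.73. A further Id gene was not called (0.22).

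Wnt pathway genes split as well. Lef1, a transcription factor of the pathway, was 11.9, 13.1 and 15.1 CPM in the tagged libraries and 4.82, 4.43 and 3.41 CPM in those labelled Trim71KO (log2 change -1.66, SE 0.14, adjusted p 1.68e-09), and untagged cells held 8.31 ± 0.544 CPM, below the tagged level by 0.69 (SE 0.13, adjusted p 0.00402). The feedback genes Axin2 and Nkd1, which report pathway activity, fell (-0.55 (SE 0.10) and -1.17 (SE 0.20)). Notum, a feedback gene whose enzyme inactivates Wnt, was 5.67, 5.71 and 6.87 against 17.99, 19.9 and 14.9 CPM (log2 change 1.53, SE 0.13, adjusted p 1.04e-09), and it also differed among the other groups, with 3.28 ± 0.609 CPM in untagged and 16.4 ± 1.44 CPM in Ago2KO-labelled cells. The gene of the secreted inhibitor Sfrp1 was 138, 130.1 and 139 against 260.0, 268 and 279.8 CPM (log2 change 0.99, SE 0.10, adjusted p 1.62e-08). Among ligands and receptors 3 of 24 rose and 5 fell. The receptor genes Fzd7 (0.51 (SE 0.087)) and Fzd9 (0.68 (SE 0.16)) rose, and Fzd3 (-0.83 (SE 0.14)) fell with Porcn, the gene of the enzyme that lipidates Wnt (-0.76 (SE 0.10)). Among transducers, targets and inhibitors 6 of 24 rose and 7 fell.

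In FGF signalling, 5 of 21 genes rose and 5 fell. The ligand gene Fgf4 was 183, 179 and 194 against 282, 268 and 283 CPM (log2 change 0.58, SE 0.12, adjusted p 0.000432). The ERK feedback genes Spry4 (252, 217 and 204 against 440.5, 414 and 431 CPM, log2 change 0.93, SE 0.16, adjusted p 8.48e-05) and Dusp6 (0.56 (SE 0.11)) rose with it, whereas the receptor genes Fgfr3 (-1.38 (SE 0.14)) and Fgfr4 (-1.45 (SE 0.20)) fell. Further members of the list were called higher, by 0.54 and 0.35. The other genes of the ERK response were not called higher. Called falls among these were -0.67 and -0.17, and Egr1 was not called (-0.66). In the LIF pathway Stat3 rose (0.48 (SE 0.08)), and its kinase targets Pim3 and Pim1 parted, with 0.43 (SE 0.12) for Pim3 and 115, 123 and 110.0 against 59.2, 59.3 and 54.0 CPM for Pim1 (log2 change -1.01, SE 0.11, adjusted p 1.58e-07). Of 14 members 3 rose and 2 fell, but 10 were called when the compared groups alone were fitted and 11 with the input libraries alone. In the Notch pathway 5 of 20 rose, including Notch1 (0.56 (SE 0.13)), its target Hes1 (0.48 (SE 0.12)), Dtx1 (0.53 (SE 0.067)) and Rfng (0.63 (SE 0.082)), and 5 fell. The largest changes of the list were falls, with -2.50 in another target gene and -1.36 in a ligand gene. Of the 5 that fell, 2 were under 2 CPM in tagged cells. The median of the list was -0.14. Without Trim71KO replicate 3, 6 were called. In retinoic acid signalling 2 of 18 rose and 5 fell, among them the binding protein genes Crabp1 (-0.58 (SE 0.075)) and Rbp4 (-0.77 (SE 0.19)) and the retinoic acid target Stra8.

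Of 32 cell cycle regulators 8 were higher (25%) and 2 lower (6.25%), against 13.5% and 13.7% over all genes. Among all genes above 64 CPM the shares were 22.1% and 10.1%. The list's median of 0.061 turned to -0.0056 with library size alone. The largest rise was in Ccnd2, the gene of cyclin D2, which opens the cell cycle with Cdk4 and Cdk6. It was 5.62, 4.54 and 5.47 CPM in the tagged libraries and 25.1, 24.9 and 17.8 CPM in those labelled Trim71KO (log2 change 2.11, SE 0.17, adjusted p 3.57e-10). Ago2KO-labelled cells held 21.0 ± 0.96 CPM, a difference between the knockouts of 0.11 (SE 0.14, adjusted p 0.63), while untagged cells held 4.60 ± 0.605 CPM. Cdk6 (0.94 (SE 0.072)) and Ccnd1 (0.54 (SE 0.073)) rose as well. Of the 11 genes known as let-7 targets or members of the Lin28 axis 5 rose and 1 fell. The growth-promoting transcription factor gene Myc was 15.5, 11.2 and 13.3 against 29.2, 27.6 and 23.6 CPM (log2 change 1.00, SE 0.16, adjusted p 1.87e-05), Mycn rose by 0.41 (SE 0.10) and Mycl fell by 0.67 (SE 0.10). The p53 target genes, which halt the cycle or start apoptosis, leaned down, with 6 of 24 lower and 2 higher and a median of -0.17. Pmaip1, the gene of the pro-apoptotic protein Noxa, was 145, 129.7 and 123 against 89.6, 81.2 and 94.5 CPM (log2 change -0.58, SE 0.075, adjusted p 1.2e-06), and Plk2 (-0.47 (SE 0.082)) and Ddit4l (-0.59 (SE 0.12)) fell. The count was 13 when the compared groups alone were fitted and 14 with the input libraries alone.

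Genes that have been reported as targets of TRIM71 repression were measured for 8 of 9. Of these 4 rose and 1 fell, with a median of 0.30. Plxnb2, which encodes a semaphorin receptor, was 64.9, 58.7 and 67.0 CPM in the tagged libraries and 147, 143 and 153 CPM in those labelled Trim71KO (log2 change 1.22, SE 0.12, adjusted p 1.93e-08). Mbnl1, a splicing regulator gene, was 12.8, 10.2 and 10.1 against 15.6, 15.98 and 18.2 CPM (log2 change 0.59, SE 0.16, adjusted p 0.00836), and Rbl1, which encodes the pocket protein p107, rose by 0.42 (SE 0.088). Inhbb, given above, is the other member that rose. Nab2 fell by 0.44 (SE 0.085). Cdkn1a, the gene of the cell cycle inhibitor p21, was 61.2, 67.3 and 64.6 against 58.2, 55.1 and 63.3 CPM (log2 change -0.13, SE 0.14, adjusted p 0.547), Rbl2 16.8, 15.3 and 15.6 against 18.97, 15.3 and 19.5 CPM (log2 change 0.17, SE 0.20, adjusted p 0.566) and Egr1 142, 58.8 and 47.6 against 89.8, 38.8 and 28.8 CPM (log2 change -0.66, SE 0.54, adjusted p 0.399), each with overlapping groups and no call. In experiment 1, described below, 6 of the 8 were called higher and 2 lower. Cdkn1a was among those higher there (1.04 (SE 0.097)).

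In the microRNA pathway 4 of 19 genes rose (21.1%), Trim71 among them, and 0 fell. The share called higher was 13.5% over all genes and 22.1% among all genes above 64 CPM. Drosha, whose enzyme cuts primary microRNA transcripts, was 163, 156 and 159 against 214, 236 and 229 CPM (log2 change 0.50, SE 0.058, adjusted p 2.28e-07). Its partner gene Dgcr8 rose by 0.31 (SE 0.069), and Lin28a, whose protein blocks let-7 maturation, by 0.35 (SE 0.068). The replicate block called 7, the compared groups alone 7 and the input libraries alone 8 genes of the list. Mir100hg, the host transcript of a microRNA cluster, was singled out after its values were seen. It was 3.21, 3.31 and 4.35 CPM in the tagged libraries and 11.2, 11.6 and 11.6 CPM in those labelled Trim71KO (log2 change 1.65, SE 0.15, adjusted p 3.31e-09). Its groups did not overlap, as held upward in 20.4% of all tested genes. In RefSeq annotation of GRCm38.p6 Mir100hg spans chr9:41376526-41615185 and contains the hairpins Mir100, Mirlet7a-2 and Mir125b-1. The mature 5′ arms, with the seed (bases 2 to 8) in capitals, show that the 3 microRNAs share no seed.
miR-100-5p: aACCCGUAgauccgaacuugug
let-7a-5p: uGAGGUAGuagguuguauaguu
miR-125b-5p: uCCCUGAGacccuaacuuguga
The let-7a sequence is listed at Mirlet7a-1, which gives the same mature 5′ arm. Mature microRNAs were not measured. Of 6 hairpin rows of the miR-290 cluster, the main microRNAs of mouse embryonic stem cells, 0 were called by edgeR, and 0 by DESeq2, and 1 had an unadjusted p under 0.05.

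Chromatin regulators changed gene by gene. In the Polycomb group 7 of 30 rose and 5 fell, with a median of 0.0035 that turned negative with library size alone. Epop, which encodes a PRC2-associated protein of embryonic stem cells, was 272, 269 and 231 CPM in the tagged libraries and 659.6, 766 and 562 CPM in those labelled Trim71KO (log2 change 1.36, SE 0.10, adjusted p 9.39e-11). All libraries labelled Trim71KO lay above all tagged ones, as in 20.4% of all tested genes, and genes chosen by size of change had to meet this. Jarid2, another PRC2 partner, rose by 0.45 (SE 0.071), and the PRC1 genes Pcgf5 (-1.02 (SE 0.11)) and Yaf2 (-0.65 (SE 0.15)) fell. Among DNA methylation genes the de novo methyltransferases parted, with a rise in Dnmt3b (0.39 (SE 0.064)) and a fall in Dnmt3a (120.5, 128 and 123 against 87.0, 89.7 and 86.2 CPM, log2 change -0.50, SE 0.06, adjusted p 4.81e-07). Their catalytically inactive cofactor Dnmt3l rose (193, 192 and 193 against 279.7, 282 and 283 CPM, log2 change 0.55, SE 0.055, adjusted p 2.42e-08). In that list 4 of 15 rose and 3 fell. Of 32 imprinted genes 8 rose and 6 fell. Grb10, a growth-restraining adaptor gene, was 371, 365 and 395 against 178, 171 and 195 CPM (log2 change -1.05, SE 0.066, adjusted p 5.32e-12). The paternally expressed genes Mest (29.7, 27.9 and 27.8 against 62.5, 50.6 and 57.6 CPM, log2 change 1.00, SE 0.075, adjusted p 1.36e-10) and Peg3 (0.89 (SE 0.13)) rose, and so did the noncoding Meg3 (0.52 (SE 0.077)), while Dlk1 fell (-1.82 (SE 0.31)). Peg3 was also high in Ago2KO-labelled cells, at 31.8 ± 2.33 CPM against 32.3 ± 5.33 CPM in the libraries labelled Trim71KO. Of 54 histone genes matched by symbol, many of them near-identical copies with uncertain counts, 8 fell (14.8%) and 0 rose. The share called lower over all genes was near this, at 13.7%. Means were under 2 CPM in both groups for 45 of the 54, the range where all genes lean down. The count of 8 was 5 without tagged replicate 3 or without Trim71KO replicate 2.

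Among metabolic programmes, genes that respond to hypoxia through HIF leaned down. Of 18 measured, 10 fell and 3 rose, with a median of -0.24. Egln1, an oxygen sensor of the pathway, was 89.5, 86.5 and 84.6 CPM in the tagged libraries and 45.1, 45.6 and 47.6 CPM in those labelled Trim71KO (log2 change -0.91, SE 0.06, adjusted p 1.23e-11). The mitophagy gene Bnip3 was 270.3, 269.6 and 273 against 178, 157 and 186 CPM (log2 change -0.64, SE 0.073, adjusted p 1.86e-07) and the collagen hydroxylase gene P4ha2 45.2, 44.5 and 54.3 against 23.6, 23.4 and 28.1 CPM (log2 change -0.94, SE 0.14, adjusted p 1.78e-05). Ankrd37 fell by 0.63 (SE 0.14), whereas Egln3, another oxygen sensor, rose by 0.60 (SE 0.063). In glycolysis 4 of 18 fell and 1 rose. Hk2, the gene of hexokinase 2, was 229.9, 249 and 276 against 128, 156 and 161 CPM (log2 change -0.76, SE 0.08, adjusted p 6.01e-08), and Ldha (-0.26 (SE 0.067)) and Tpi1 (-0.30 (SE 0.065)) fell a little. Eno1 was the member that rose (0.30 (SE 0.076)).

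Of the 22 genes of the ATF4 response to amino acid shortage 8 fell and 2 rose, 6 in all without tagged replicate 2. Vldlr was 4.79, 5.71 and 6.34 against 1.72, 2.00 and 2.69 CPM (log2 change -1.39, SE 0.21, adjusted p 1.28e-05), the proline synthesis gene Pycr1 fell by 0.49 (SE 0.08) and Nupr1 fell by 0.52 (SE 0.095). Cth, a cysteine synthesis gene, rose by 0.77 (SE 0.062). In sterol biosynthesis 6 of 21 fell, Dhcr7 the most (-0.49 (SE 0.078)), and 2 rose. That count of 8 was 4 without Trim71KO replicate 2. Of 25 lysosomal genes 7 rose (28%) and 1 fell, against 13.5% higher over all genes and 22.1% among all genes above 64 CPM. Tfeb, the master transcription factor of lysosome genes, was 36.7, 34.6 and 34.5 against 65.0, 68.5 and 59.0 CPM (log2 change 0.86, SE 0.075, adjusted p 2.03e-09), its relative Tfe3 rose by 0.39 (SE 0.064) and Ctsa by 0.44 (SE 0.11). The count of 8 was 5 with library size alone or without tagged replicate 2, 4 without Trim71KO replicate 3 and 13 with the input libraries alone.

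Highly expressed housekeeping classes moved little. Of 83 cytosolic ribosomal protein genes 15 were called higher (18.1%) and 1 lower. The retrogene Rpl10l with 0.62 (SE 0.076) and Rpl39l with -0.68 (SE 0.061) stood at the ends. Of 87 nuclear genes of the respiratory chain 13 were higher (14.9%) and 1 lower. The share called higher was 13.5% over all genes and 22.1% among all genes above 64 CPM. The ribosomal and respiratory medians of 0.086 and 0.05 were small, and the second turned to -0.017 with library size alone. Both counts depended on the libraries, with 8 and 6 called without Trim71KO replicate 2 and 26 and 23 without Trim71KO replicate 3. With library size alone they were 9 and 6. Without tagged replicate 3 they were 10 and 8, and 10 ribosomal genes were called without tagged replicate 1. Of 13 mitochondrially encoded mRNAs 1 had an unadjusted p under 0.05 and 0 were called by edgeR, with 0 called by DESeq2 and 4 when the compared groups alone were fitted. Of 16 chaperones of the endoplasmic reticulum 3 rose and 0 fell, but 0 or 1 were called in every fit that left out a library and 9 when the compared groups alone were fitted. The replicate block and DESeq2 each called 5.

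In the interferon response list 5 of 17 genes rose and 6 fell. Tap1, a peptide transporter gene of antigen presentation, was 3.60, 4.64 and 5.27 CPM in the tagged libraries and 1.72, 1.42 and 1.88 CPM in those labelled Trim71KO (log2 change -1.42, SE 0.26, adjusted p 0.000156). The immunoproteasome gene Psmb9 was 4.14, 3.26 and 4.21 against 2.11, 1.58 and 0.813 CPM (log2 change -1.36, SE 0.24, adjusted p 8.65e-05) and the class I gene H2-K1 31.8, 32.6 and 33.2 against 18.04, 19.5 and 19.9 CPM (log2 change -0.76, SE 0.12, adjusted p 1.83e-05). Another class I gene, H2-D1, was 28.8, 25.2 and 24.2 against 32.1, 28.8 and 28.8 CPM (log2 change 0.20, SE 0.12, adjusted p 0.228) and not called. Of the antiviral genes, Bst2 fell (-0.76 (SE 0.11)), and Mx1 had the largest fall of the list (-2.31 (SE 0.60)) at under 1 CPM in every library. Oas1a, a sensor of foreign RNA, was 10.3, 8.65 and 9.63 against 23.5, 23.1 and 19.9 CPM (log2 change 1.21, SE 0.11, adjusted p 2.58e-09), and Oasl1 rose by 1.42 (SE 0.28) and Ddx58, the gene of RIG-I, by 0.83 (SE 0.10). The RNA sensor gene Tlr3 was not called (1.38, 1.81 and 1.31 against 1.57, 1.53 and 1.68 CPM, log2 change 0.091, SE 0.26, adjusted p 0.834). The groups did not overlap for Tap1, Psmb9, H2-K1, Oas1a, Oasl1 and Ddx58. For genes chosen by size of change this was a condition of the choice. It was met upward in 20.4% and downward in 21.2% of all tested genes.

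In the list of epithelial and mesenchymal genes 8 of 17 rose and 5 fell, with members of both kinds in each direction. Grhl2, a transcription factor that maintains epithelia, was 4.39, 4.48 and 3.58 CPM in the tagged libraries and 19.8, 19.9 and 15.6 CPM in those labelled Trim71KO (log2 change 2.15, SE 0.16, adjusted p 1.84e-10). The epithelial splicing regulator gene Esrp1 was 11.6, 10.4 and 10.9 against 27.5, 27.3 and 29.2 CPM (log2 change 1.35, SE 0.10, adjusted p 9.04e-11). Cdh1, the gene of E-cadherin, rose from 170.2 ± 12.5 to 244 ± 11.97 CPM (log2 change 0.52, SE 0.11, adjusted p 0.00114), and Epcam by 0.50 (SE 0.10). Cdh2, the gene of N-cadherin, was 4.39, 3.90 and 3.63 against 2.41, 1.79 and 1.63 CPM (log2 change -1.03, SE 0.26, adjusted p 0.00348). The mesenchymal genes Vim and Snai1 rose (0.31 (SE 0.057) and 0.62 (SE 0.19)), and the tight junction genes Ocln and Cldn3 fell (-1.41 (SE 0.22) and -0.71 (SE 0.22)). Snai1 lost its call without tagged replicate 1 or Trim71KO replicate 1 or 3, and Cldn3 without tagged replicate 1 or 3 or Trim71KO replicate 2, with adjusted p of at most 0.0959 and 0.0758. Of 24 matrix genes 5 rose, such as the basement membrane genes Nid1 (0.68 (SE 0.16)) and Col18a1 (0.65 (SE 0.13)), and 5 fell. Their count of 10 was 6 without tagged replicate 3, 5 without Trim71KO replicate 1 and 6 without Trim71KO replicate 2. Of 4 feeder markers that could be tested, 1 rose and 1 fell.

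Few genes differed with the tag. Between tagged and untagged input 275 of 19778 genes were called (1.39%), and between Ago2KO-labelled and tagged input 1376 (6.96%). Against untagged cells 5757 genes (29.1%) were called in the libraries labelled Trim71KO, and against Ago2KO-labelled cells 5612 (28.4%). These comparisons share libraries. In a principal component analysis of the 12 input libraries, the first component (48.9% of variance) set the 3 libraries labelled Trim71KO apart from the other 9. The second (21.3%) set apart those labelled Ago2KO (-18.2 to -16.0). Untagged libraries lay at its opposite end (9.76 to 13.97), above the tagged libraries (0.70 to 4.54).

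Experiment 1 compared the same genotypes in other libraries, 3 against 3, and gives a further measure of each gene. There 6377 of 18772 genes (34%) were called. Of the 5199 genes that were called in experiment 2 and tested in both, 2015 (38.8%) were also called in the same direction in experiment 1, and 337 (6.48%) in the opposite direction. The 2015 were 31.8% of the 6344 calls of experiment 1 among genes tested in both. Stra8 fell in both experiments, with -2.81 (SE 0.13) in experiment 1 and -3.16 (SE 0.14) in experiment 2. So did Gata6 (-4.66 (SE 0.23) in experiment 1), Sox17 (-2.86 (SE 0.27)), Ddx25 (-1.08 (SE 0.18)) and Sycp3 (-0.91 (SE 0.21)). Nkx6-3 (2.50 (SE 0.18)), Cpe (1.95 (SE 0.12)), Lefty1 (1.72 (SE 0.20)), Lefty2 (1.62 (SE 0.17)), Gli1 (1.13 (SE 0.095)), Ccnd2 (1.60 (SE 0.19)), Esrp1 (1.19 (SE 0.16)), Plxnb2 (1.98 (SE 0.13)) and Mir100hg (1.78 (SE 0.24)) rose in both. A fit of the 12 libraries of both experiments tested the difference of the changes, and 4185 of 18399 genes (22.7%) passed. Among them were genes with opposite calls in the experiments. Myc was -0.35 (SE 0.12) in experiment 1 and 1.00 (SE 0.16) in experiment 2, Dusp6 -0.68 (SE 0.087) and 0.56 (SE 0.11), Lin28a -0.49 (SE 0.12) and 0.35 (SE 0.068), Epcam -0.31 (SE 0.11) and 0.50 (SE 0.10), and Pycr1 0.29 (SE 0.091) and -0.49 (SE 0.08). Counts of calls per list were alike in direction for some lists and not for others, and the difference was not tested by list. Germline genes were 2 higher and 19 lower in experiment 2 and 3 higher and 15 lower in experiment 1, primitive endoderm genes 1 and 10 against 0 and 11, and naive pluripotency genes 12 and 3 against 10 and 1. Core pluripotency genes were 5 higher and 0 lower in experiment 2 but 1 higher and 5 lower in experiment 1. The p53 targets were 2 and 6 against 8 and 2, the ATF4 list 2 and 8 against 6 and 0, the nuclear respiratory chain 13 and 1 against 2 and 18, and the Hox list 0 and 7 against 2 and 2. Cell cycle regulators were 8 and 2 against 8 and 10, and cytosolic ribosomal proteins 15 and 1 against 1 and 2. The lean of low-level genes ran the other way in experiment 1, where those at or below 2 CPM had a median change of 0.11 against -0.16 in experiment 2.

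**Figure D5:**
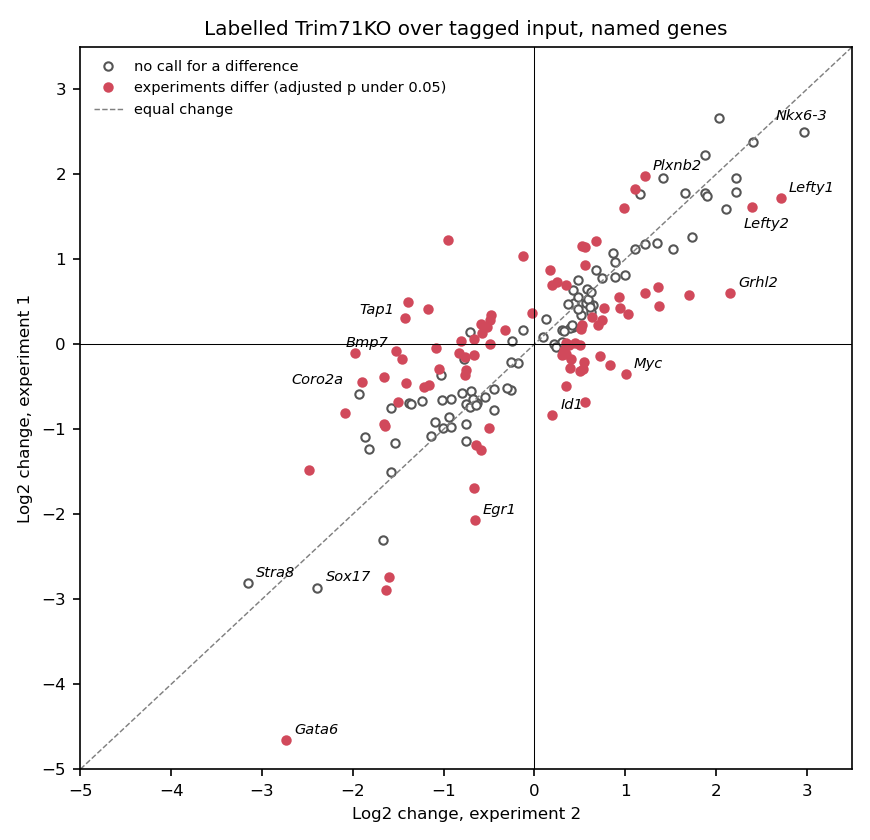
Log2 change in experiment 2 (x axis) against experiment 1 (y axis), each 3 against 3 libraries, for the genes named in the text and tested in both. Filled points differ between the experiments by the joint test. Stra8 and Gata6 lie low in both, and Lefty1, Lefty2 and Nkx6-3 high.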

How the data were processed

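RNA was measured as stranded total RNA-seq of cleared lysates, per the labels' protocols. The values used are the raw counts per gene that the authors deposited for each library. Per the file headers the table also holds RPKM values, which were not used. Per the submitters' processing notes the tools include bcl2fastq 2.20 and STAR 2.7.3a, with the builds GRCm38 and mm10; the counting tool and annotation are not given in the sources used here, nor is how overlapping genes and near-identical copies were treated. The columns were mapped to samples by name, and 0 value columns were left unmapped.

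The counts of all 24 libraries of experiment 2 (8 groups) were fitted together with edgeR 4.0.16 in R 4.3.3 (TMM, filterByExpr, quasi-likelihood F test), which left 19778 of 19866 genes. The contrasts were taken between input groups, and SE was taken from the log2 change and the F statistic (their ratio, with F square-rooted). Experiment 1 was fitted in the same way, and the input libraries of both experiments together for the difference. CPM values are at the TMM-adjusted library size. On simulated counts of 19645 genes for this comparison, 95 of 100 genes changed 2-fold and 99 of 100 changed 4-fold were recovered, with 4.43% of the calls false. The changed genes were drawn above a minimum mean count, and all genes were given the same dispersion. These rates therefore need not hold for genes of low level or of larger spread. In all 6 pairs of libraries within the groups, replicates differed by more than sampling noise (chi-square per gene 4.18 to 9.00). Reads carry no stated molecular identifiers, so depth covers counting error only.

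The members, the 44 gene lists and the tests were chosen with earlier results of these data known. Genes were named by a rule: the targeted and tagged genes, preset anchors of lists, and genes chosen by size of change. Per list, up to 5 members were chosen by size. They had to be called, with non-overlapping groups and a mean log2 CPM of at least 0. Over all genes with a symbol, the 15 largest changes each way were taken. These too had to be called, with non-overlapping groups, and with a mean log2 CPM of at least 2. For genes chosen by size of change, non-overlap is thus a condition of the choice. The text names 154 of the 262 genes this rule gives, and 25 more chosen after their values were seen. Libraries with the same replicate number deviated together (r = 0.21, 0.27 and 0.30 for the 3 pairs of tagged and Trim71KO input), a pairing taken from the data and not stated in the labels, so the number was also used as a block within input and IP. Further alternatives were RLE size factors, library size alone, no filter, a stricter filter (at least 1 CPM in 3 libraries), the compared groups alone, the input libraries alone, DESeq2 1.42.0 and leaving out each of the 6 libraries. RefSeq tables of GRCm38.p6 gave promoters and microRNAs. Some genes that the rule gives are counted in their lists and not reported here by name.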

Additional observations from a re-analysis of the deposited data

Results flagged for a closer look

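Of the 179 genes named in the report, 177 were tested in both experiments, and 89 changed by a different amount in the 2 experiments by the interaction test of edgeR (adjusted p under 0.05 over 18399 genes). Over all genes in that fit the share was 22.7%. The change in experiment 2 was the more positive for 43 and the more negative for 46, and the estimates had opposite signs in 32. Values below are the log2 change in experiment 2 minus that in experiment 1, each from 3 against 3 libraries. The cause of the differences was not tested, and experiment cannot be told apart from culture or library preparation.

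Opposite changes passed the test in both experiments for 7 genes. The difference was 1.36 for Myc, 1.24 for Dusp6, 0.84 for Lin28a and 0.82 for Epcam. The difference was -0.78 for Pycr1, -0.82 for Plk2 and -2.18 for Hoxc13.

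Opposite signs without a call in both experiments were seen for other genes. With no call in at least 1 experiment, it was 1.07 for Ddx58, 1.04 for Id1, 0.86 for Krt8, 0.82 for Ccnd1, 0.75 for Dnmt3l, 0.67 for Lama1, 0.57 for Mycn and 0.51 for Drosha. It was 0.46 for Sox2, 0.43 for Nodal, 0.41 for Vim, 0.39 for Dnmt3b and 0.39 for Gdf3. With no call in at least 1 experiment, it was -0.39 for Esrrb, -0.49 for Jam2, -0.50 for Dhcr7, -0.71 for Crabp1, -0.72 for Nupr1, -0.74 for Cdon, -0.83 for Ddit4l and -0.84 for Pou3f1. It was -1.17 for Cdkn1a, -1.59 for Nkd1, -1.73 for Tap1 and -1.89 for Vldlr.

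The change had the same sign and was larger in experiment 2 for a further group of genes. It was 1.55 for Grhl2, 1.13 for Id3, 0.99 for Lefty1, 0.92 for Foxd3, 0.78 for Lefty2, 0.69 for Epop, 0.67 for Bmp4 and 0.61 for Otx2. The difference came to 0.52 for Cdk6, 0.47 for Nr0b1, 0.46 for Sox11, 0.43 for Jarid2, 0.37 for Spry4, 0.35 for Cth, 0.33 for Nanog and 0.33 for Cdh1. It was 0.31 for Rfng and 0.30 for Meg3. It was -0.40 for Hk2, -0.45 for Mov10l1, -0.54 for Mycl, -0.62 for H2-K1, -0.68 for Hhex, -0.69 for Ankrd44, -0.71 for Tdrkh and -0.72 for Cpn1. The difference came to -0.72 for Fzd3, -0.76 for Grb10, -0.82 for Brdt, -0.95 for Ocln, -1.002 for Piwil4, -1.04 for Cdx1, -1.28 for Fgfr4 and -1.28 for Car12. It was -1.29 for H2-Q7, -1.44 for Bmp7, -1.45 for Coro2a and -1.88 for H2-Ab1.

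It had the same sign and was smaller in experiment 2 for the rest. Here it was 1.92 for Gata6, 1.42 for Egr1, 1.25 for Pdgfra, 1.13 for Dab2, 1.02 for Gata4, 0.66 for Pmaip1, 0.54 for Bnip3 and 0.49 for Dnmt3a. Here it was -0.35 for Sohlh2, -0.38 for Inhbb, -0.48 for Klf4, -0.50 for H2-D1, -0.53 for Nid1, -0.59 for Notch1, -0.62 for Sfrp1 and -0.63 for Dtx1. Differences of this kind were -0.70 for Rbl2, -0.72 for Ptch1 and -0.76 for Plxnb2.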

How the results depend on the processing

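The alternatives below were computed for the comparison with tagged input. The count of 5383 genes called stayed within 1.5 times its value in each of the 14 alternatives. It was 5501 with RLE size factors, 5339 with library size alone, 5458 with DESeq2, 5810 with the replicate block, 6423 when the input libraries alone were fitted, and 4273 to 4643 when a library was left out. Of the 168 named genes that were called, 161 kept the call and direction in every alternative that tested them. The other 7 were Pou5f1, Nodal, Lama1, Smo, Snai1, Cldn3 and Fbxo15. Of the 11 named genes without a call, Tnrc6a and Id1 gained one in some alternatives, and none changed direction. The replicate block called Tnrc6a and changed no other call of a named gene. Among 44 lists in 14 alternatives, the number of members called stayed within 1.5 times in 562 of 616 cases. List medians near 0 turned sign with library size alone or RLE size factors in 9 lists, namely the BMP, Polycomb, cell cycle, glycolysis, mesoderm, microRNA and respiratory chain lists, the Wnt ligands and receptors and the Nodal receptors. The comparisons with untagged and Ago2KO-labelled input, experiment 1 and the difference of experiments were recomputed with RLE size factors and library size alone and ranged, the reported value included, over 5620 to 5757, 5390 to 5662, 6119 to 6419 and 4081 to 4185 calls, respectively. Depth limits the genes at or below 2 CPM, where 1 to 3 counts more or less in a library move a value by a large share.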
